A study of Mus musculus with 8 samples.

Results

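The voltage-gated sodium channel genes described here are Scn1a, Scn2a, Scn3a, Scn8a, Scn2b and Scn3b, chosen by name and not by their values. They are 6 of the 18301 genes in the deposited table of mouse neurons, and all 6 had enough counts to be among the 12898 genes tested. The data are ribosome footprints and total RNA of neurons at day 8 in vitro, differentiated from CGR8 mouse embryonic stem cells. A footprint is a short piece of mRNA that a ribosome shields from nuclease, and a footprint count follows the number of ribosomes on a gene's mRNA. The neurons were labelled either as an Eif4g1/Eif4g3 double knockout (DKO) or as wildtype (WT), with 2 footprint libraries and 2 RNA libraries of each. Eif4g1 and Eif4g3 encode scaffold proteins that bring the ribosome to capped mRNA, and the comparison asks how translation differs between the labelled genotypes.

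All cultures, DKO and WT, were treated with cycloheximide at 100 µg/ml for 5 minutes before lysis, which stops ribosomes in place and can shift where footprints lie. The replicates of a group carry different culture codes in the labels, which do not say whether a code stands for a clone or a differentiation. Each p-value of DKO against WT in footprints or in RNA thus weighs a difference against a spread between replicates that includes differences between cultures. That spread was estimated from all 8 libraries together, with footprints and RNA of a culture taken as independent. The main fit had no term for culture, so its tests of footprints against RNA did not use their pairing within a culture. WT replicate 1 has a code of the same style as the DKO cultures, whereas the code of WT replicate 2 is only WT. Whole-gene counts did not check the genotype. Eif4g1 stood at 153.8 and 287.5 CPM (counts scaled by library size) in the DKO footprints, against 299.8 and 263.0 CPM in the WT footprints. Its RNA stood at 125.4 and 304.9 CPM in DKO, against 288.3 and 279.9 CPM in WT, so Eif4g1 was low in the libraries labelled DKO replicate 1, whereas those labelled DKO replicate 2 lay between or above the WT values. Eif4g3 stood at 164.4 and 172.5 CPM in the DKO footprints, against 168.6 and 153.3 CPM in the WT footprints. Its RNA had 102.9 and 138.5 CPM in DKO, against 120.1 and 128.3 CPM in WT. The DKO replicate 2 values of Eif4g3 lay above both WT values in both assays. What was deleted is not given in the labels, and DKO below means the libraries so labelled. Values without DKO replicate 2 are given beside the gene-level differences.

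The labels call the cells cortical glutamatergic neurons. Slc17a6, a vesicular glutamate transporter, had 234.2 and 193.6 CPM in the DKO footprints, against 165.7 and 74.33 CPM in the WT footprints. Slc17a7, the main glutamate transporter of cortical excitatory neurons, stayed at or below 0.218 CPM, and Tbr1, a deep-layer cortical factor, at or below 1.045 CPM in every library. Gad1, which makes GABA, had 183.3 and 173.2 CPM in the DKO footprints, against 189.4 and 179.8 CPM in the WT footprints. Each list was mixed. Of the glutamatergic list, Gria2, a glutamate receptor subunit, had 152.1 to 382.1 CPM, Grin2b 18.47 to 32.57 CPM, Camk2a 6.199 to 17.8 CPM and Bcl11b 3.996 to 15.19 CPM over the 8 libraries. Of the GABAergic list, Slc32a1 had 46.19 to 248.2 CPM, Calb2 60.66 to 216.4 CPM and Sst 32.12 to 197.5 CPM over the 8 libraries. Gad2 had 81.54 to 166.5 CPM, Vip 4.365 to 43.82 CPM and Npy 7.207 to 41.73 CPM. Dlx1 stayed at or below 3.643 CPM, and Dlx2, Dlx5, Lhx6 and Pvalb stayed at or below 1.771 CPM. The whole glutamatergic list summed to 471.8 and 443.6 CPM in the DKO footprints, against 417.6 and 280.2 CPM in the WT footprints. The GABAergic list summed to 1016 and 1041 CPM in DKO footprints, against 1051 and 833.1 CPM in WT footprints. In RNA the order of the lists was reversed. There the glutamatergic list summed to 627.9 and 591.9 CPM in DKO, against 592.6 and 466.5 CPM in WT. Gria2 alone made up 354.9 and 362.9 CPM of this in DKO, and 382.1 and 341.7 CPM in WT. The reversed order in RNA thus rests on Gria2. The GABAergic list summed to 399 and 455.3 CPM in DKO RNA, against 433.8 and 373.9 CPM in WT RNA. WT replicate 2 stood apart from the other cultures on the first principal component of both assays (35.72 in footprints and 30.14 in RNA, with all others below 0).

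Voltage-gated sodium channels open when the membrane depolarises and carry the inward current that starts the action potential. A large alpha subunit forms the pore, senses voltage and closes the pore again through an inactivation gate, and smaller beta subunits with an immunoglobulin-like fold adjust gating, surface placement and adhesion. In the brain, Scn3a is known mainly from embryonic neurons, Scn2a from early axon initial segments of excitatory neurons, Scn8a from mature initial segments and nodes of Ranvier, and Scn1a from inhibitory interneurons.

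The alpha subunits are so alike in sequence that short reads can fall on several of them. The stretch of Scn8a below encodes the inactivation gate between the last domains of the alpha subunit, a part that the alpha subunits have in common, and it lies in the analysed isoforms. The capitals mark the codons for isoleucine, phenylalanine and methionine, the motif of this gate. Over its 90 bases the stretch differs from that of Scn1a at 14 bases. From those of Scn2a and Scn3a it differs at 12 bases each, so it is not identical between these genes. The sequence is from GENCODE M21 (GRCm38), at chr15:101033478-101033567 on the plus strand.
Scn8a: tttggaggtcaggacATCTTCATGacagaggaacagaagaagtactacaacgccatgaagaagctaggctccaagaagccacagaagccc
Over whole coding sequences, identity was 82.9% between Scn1a and Scn2a, 81.6% between Scn1a and Scn3a and 84% between Scn2a and Scn3a. Scn8a was less close, with 74% to 74.2% identity to the other 3 alpha genes. The beta genes Scn2b and Scn3b shared 55.7%.

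Among all windows of 28 bases, about the length of a footprint, another annotated gene held 15.1% of those in the longest Scn1a coding sequence, 19.9% in Scn2a and 21.3% in Scn3a. The share was 1.99% in Scn8a, and no such window of Scn2b or Scn3b was found in another gene. Scn2a and Scn3a had 875 such windows in common, and Scn1a and Scn2a had 623. Over the isoforms in the table alone, the share of windows found in another gene of the table was 6.07% for Scn1a, 4.45% for Scn2a, 6.24% for Scn3a, 0.733% for Scn8a, 2.37% for Scn2b and 0.253% for Scn3b. Counts are uncertain in those windows.

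What the table measures also differs between the genes. Scn1a (ENSMUSG00000064329, chr2:66270778-66440840, minus strand) is represented by 2 of its 8 annotated isoforms, which cover 48.5% of its longest coding sequence of 6027 bases. Scn2a (ENSMUSG00000075318, chr2:65620771-65767447, plus strand) is represented by 3 of 9 isoforms, none annotated as protein-coding, which cover 19.4% of 6018 coding bases. Scn3a (ENSMUSG00000057182, chr2:65457118-65567627, minus strand) is represented by 1 of 4 isoforms, the processed transcript Scn3a-204, which covers 14.2% of 5841 coding bases. For these 3 genes the values are those of partial transcripts. Scn8a (ENSMUSG00000023033, chr15:100869858-101045938, plus strand) is represented by 12 of 20 isoforms and 99.5% of 5964 coding bases. Scn2b (ENSMUSG00000070304, chr9:45117782-45130070, plus strand) and Scn3b (ENSMUSG00000049281, chr9:40269217-40291618, plus strand) are represented by 2 of 2 and 8 of 9 isoforms and by 100% of 645 coding bases each.

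**Figure D1:**
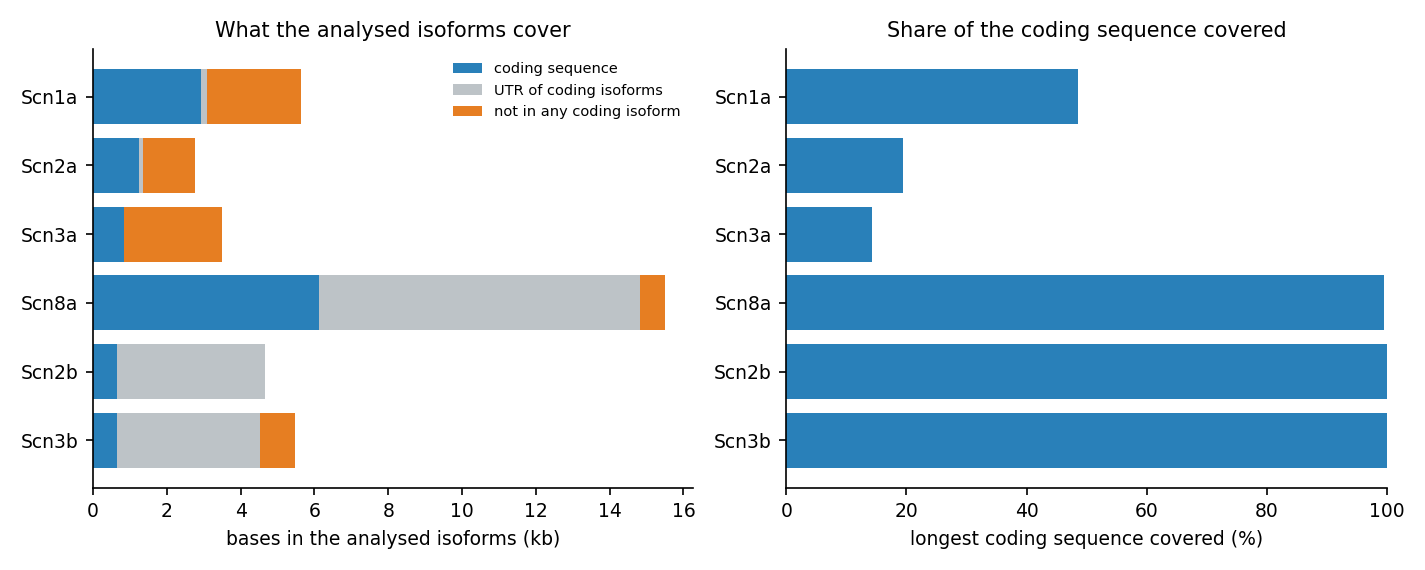
The left panel gives, for each gene, the bases of its analysed isoforms in kilobases, split by what the annotation says they are, and the right panel gives the percentage of the longest coding sequence that those isoforms cover. Scn8a, Scn2b and Scn3b reach 99.5% to 100%, whereas Scn1a, Scn2a and Scn3a reach 48.5%, 19.4% and 14.2%.

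The first comparison asked whether DKO neurons carried more or fewer ribosomes on sodium channel mRNAs, relative to the typical gene. Scaling by library size takes out a change that all genes share. A general rise or fall in ribosome load therefore cannot be seen in any value of DKO against WT. None of the 6 genes passed the edgeR quasi-likelihood test at a Benjamini-Hochberg adjusted p under 0.05, where 0.00775% of the 12898 genes tested were called. At an unadjusted p under 0.05, 0 of the 6 passed, against 5.62% of all genes. DESeq2 and limma-voom also called 0 of the 6. The 5 log2 differences above 0 and the 1 below 0 had a median of 0.07, against 0.00 over all genes. Groups without overlap were found for 1 of the 6, with DKO above, where DKO lay above WT in 16.3% of all genes and below WT in 16.2%.

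Among the alpha subunits, Scn8a had 95.7 and 98.5 CPM in the DKO footprints, against 96.7 and 92.6 CPM in the WT footprints. The groups overlapped, and its log2 difference of 0.04 ± 0.09 (SE, 95% interval -0.17 to 0.24, adjusted p = 0.967) had the narrowest interval of the 6. Scn2a had 62.2 and 57.6 CPM in DKO, against 55.6 and 48.8 CPM in WT. Both DKO libraries lay above both WT libraries, and the log2 difference was 0.20 ± 0.11 (interval -0.05 to 0.44, adjusted p = 0.852, edgeR). Scn1a had 36.4 and 37.7 CPM in DKO, against 39.6 and 29.6 CPM in WT, so both DKO values lay between the WT values (log2 difference 0.10 ± 0.13, interval -0.19 to 0.38, adjusted p = 0.93, edgeR). Scn3a had 24.1 and 19.3 CPM in DKO, against 21.7 and 16.9 CPM in WT. Its groups overlapped and its interval was the widest (log2 difference 0.15 ± 0.15, interval -0.18 to 0.49, adjusted p = 0.897, edgeR).

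Scn2b, whose protein is joined to the alpha subunit by a disulfide bond, had 15.2 and 16.3 CPM in the DKO footprints, against 15.0 and 16.1 CPM in the WT footprints. The groups overlapped, and the log2 difference was 0.02 ± 0.12 (interval -0.25 to 0.29, adjusted p = 0.993, edgeR). Scn3b, whose protein binds the alpha subunit without such a bond, had 141 and 163 CPM in DKO, against 168 and 156 CPM in WT. It was the 1 gene with a value below 0, and its groups overlapped as well (log2 difference -0.09 ± 0.11, interval -0.33 to 0.15, adjusted p = 0.915, edgeR). In fold terms, the intervals ran from 0.892 to 1.18 times WT for Scn8a, from 0.794 to 1.11 for Scn3b and from 0.881 to 1.40 for Scn3a.

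WT replicate 2 had the lowest footprint values of Scn1a, Scn2a, Scn3a and Scn8a, and in the same library the summed CPM of the neuron markers was lowest. The 10 neuron markers summed to 8157 and 8688 CPM in the DKO footprints, against 8869 and 7394 CPM in the WT footprints. The 10 fibroblast, mural and endothelial markers summed to 582.9 and 191.2 CPM in DKO, against 347.3 and 932.6 CPM in WT, and none of these markers was at 0 in all libraries. The 8 measured progenitor and radial glia markers summed to 3556 and 3956 CPM in DKO, against 4465 and 4843 CPM in WT, and the 11 measured oligodendrocyte markers to 747 and 806.8 CPM in DKO, against 956 and 1184 CPM in WT. The 9 measured markers of dividing cells summed to 454 and 451 CPM in DKO, against 512.7 and 624.8 CPM in WT. These markers of other cell types were thus highest in WT replicate 2, where neuron markers were lowest. Without both libraries of WT replicate 2, the log2 difference was -0.09 for Scn1a, 0.11 for Scn2a, -0.02 for Scn3a and 0.01 for Scn8a. Without both libraries labelled DKO replicate 2, it was 0.07 for Scn1a, 0.25 for Scn2a, 0.32 for Scn3a, 0.01 for Scn8a, -0.03 for Scn2b and -0.20 for Scn3b. In bulk cultures, fewer cells of a type and less RNA per cell cannot be told apart, and the part of the cell markers in these values was not tested. No gene of the 6 was called in any of these fits.

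**Figure D2:**
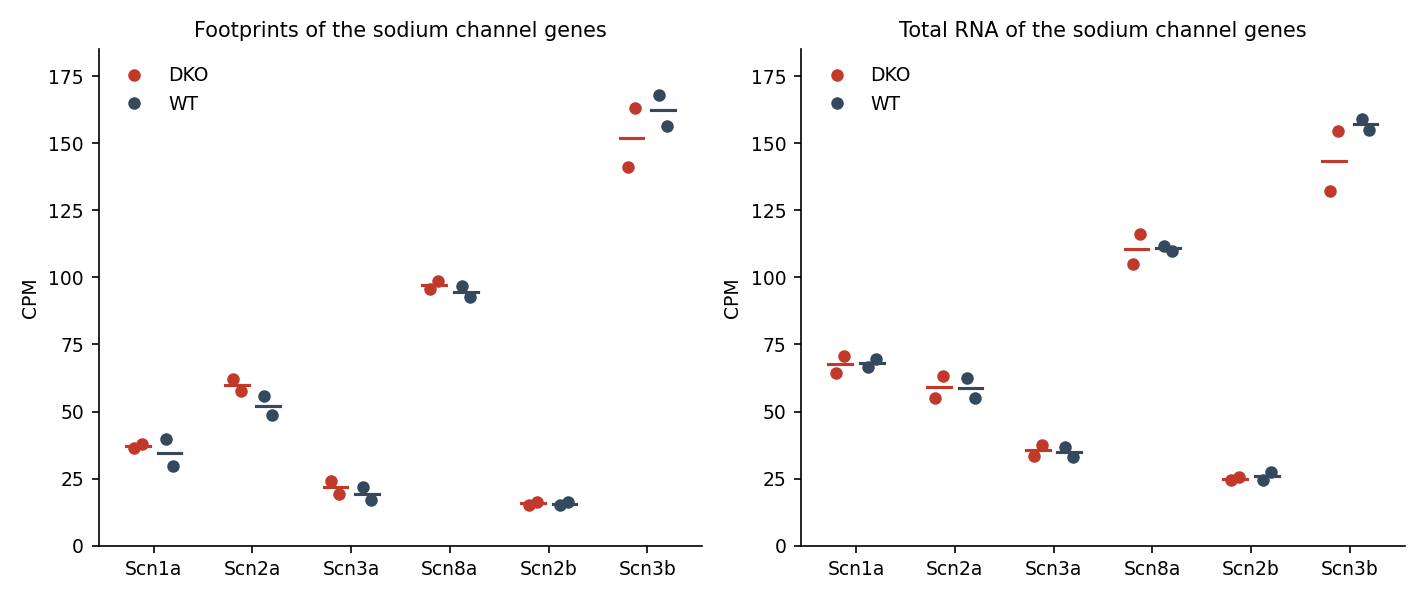
Each point is 1 library, with footprints in 1 panel and total RNA in the other, in CPM on a linear axis, DKO left of WT for each gene. DKO and WT points overlap for every gene except Scn2a in footprints, where DKO lies above WT, and Scn3b in RNA, where DKO lies below WT.

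Total RNA gave still smaller differences among the alpha subunits. No gene of the 6 was called, against 0.0155% of all genes tested, and the median log2 difference was -0.01, against 0.00 over all genes. At an unadjusted p under 0.05, 0 of the 6 passed, against 5.57% of all genes, and DESeq2 and limma-voom called 0 of the 6. Scn8a had 105 and 116 CPM in DKO RNA, against 112 and 110 CPM in WT RNA (log2 difference 0.00 ± 0.09, interval -0.20 to 0.19, adjusted p = 0.999, edgeR). Scn1a had 64.5 and 70.8 CPM in DKO, against 66.5 and 69.5 CPM in WT (log2 difference -0.01 ± 0.12, interval -0.27 to 0.25, adjusted p = 0.999, edgeR). For Scn8a and Scn1a, the WT values lay inside the range of the DKO values. Scn2a had 54.9 and 63.1 CPM in DKO, against 62.4 and 55.2 CPM in WT (log2 difference 0.00 ± 0.11, interval -0.24 to 0.24, adjusted p = 0.999, edgeR). Scn3a had 33.6 and 37.7 CPM in DKO, against 36.7 and 33.2 CPM in WT (log2 difference 0.03 ± 0.14, interval -0.28 to 0.34, adjusted p = 0.995, edgeR). The groups overlapped for both.

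Of the beta subunits, Scn2b had 24.3 and 25.5 CPM in DKO RNA, against 24.4 and 27.4 CPM in WT RNA, with overlapping groups (log2 difference -0.06 ± 0.11, interval -0.31 to 0.19, adjusted p = 0.978, edgeR). Scn3b had 132.1 and 154.7 CPM in DKO, against 159.1 and 154.97 CPM in WT. Both DKO values lay below both WT values, as they did for 18.9% of all genes (DKO lay above in 19.6%), but the second DKO value was within 1 CPM of the second WT value. The log2 difference was -0.13 ± 0.11 (interval -0.37 to 0.11, adjusted p = 0.894, edgeR). Without the RNA library of DKO replicate 1, the library with the lowest Scn3b value, it was -0.01. Without both libraries labelled DKO replicate 2, the RNA differences of the 6 genes lay between -0.25 (Scn3b) and -0.05 (Scn3a), and without both of WT replicate 2 they lay between -0.15 (Scn3b) and 0.03 (Scn2b), with no call.

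Translational efficiency, the footprint level relative to the RNA level, was compared as the difference between these ratios, again relative to the typical gene. All 6 point estimates were above 0, with a median of 0.09 against 0.01 over all genes, and none was called in edgeR, where 0% of the genes tested were called. At an unadjusted p under 0.05, 0 of the 6 passed, against 0.853% of all genes. DESeq2 and limma-voom called 0 of the 6, and 1 and 0 of all genes. The log2 ratio of Scn2a was 0.18 and -0.13 in the DKO cultures, against -0.17 and -0.18 in the WT cultures. DKO lay above WT, as for 13.7% of all genes (13.2% had DKO below), with the first DKO culture well above the other 3 (log2 difference 0.19 ± 0.16, interval -0.15 to 0.53, adjusted p = 1, edgeR). The log2 ratio of Scn2b was -0.68 and -0.65 in DKO, against -0.70 and -0.76 in WT, also without overlap (log2 difference 0.08 ± 0.17, interval -0.29 to 0.45, adjusted p = 1, edgeR).

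The ratios of the other 4 genes overlapped between genotypes. The log2 ratio of Scn1a was -0.83 and -0.91 in DKO, against -0.75 and -1.23 in WT, with WT replicate 2 the lowest. That of Scn3a was -0.48 and -0.96 in DKO, against -0.75 and -0.98 in WT. That of Scn8a was -0.14 and -0.24 in DKO, against -0.21 and -0.24 in WT, and that of Scn3b was 0.09 and 0.08 in DKO, against 0.08 and 0.01 in WT. The intervals of the difference were -0.28 to 0.49 for Scn1a, -0.33 to 0.58 for Scn3a, -0.24 to 0.32 for Scn8a and -0.30 to 0.38 for Scn3b. Without both libraries of WT replicate 2, the difference was -0.12 for Scn1a, 0.19 for Scn2a and 0.03 for Scn3a. Without both libraries labelled DKO replicate 2, it was 0.15 for Scn1a, 0.35 for Scn2a, 0.37 for Scn3a, 0.09 for Scn8a, 0.06 for Scn2b and 0.05 for Scn3b, and no gene of the 6 was called in either fit.

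**Figure D3:**
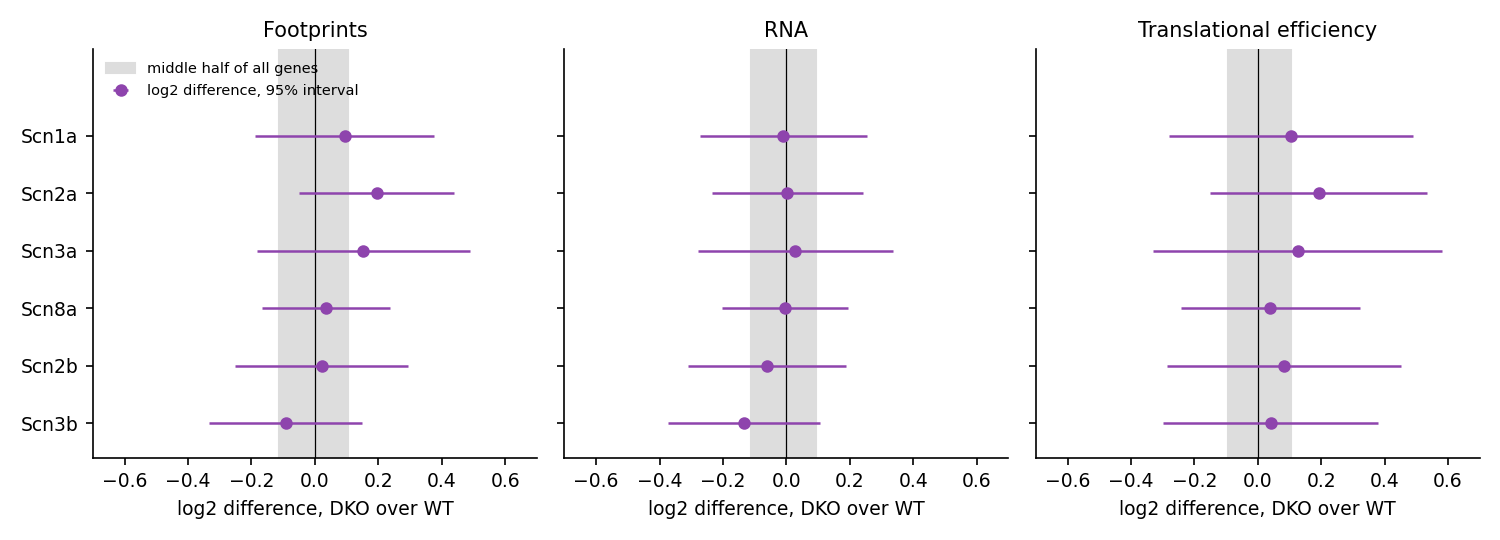
Each point is the log2 difference of DKO over WT from edgeR for 1 gene, with its 95% interval as a line, for footprints, RNA and translational efficiency in turn, and the grey band holds the middle 50% of all genes tested. Every interval includes 0, and those of Scn3a are the widest in each panel.

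Across all 4 cultures, irrespective of genotype, the sodium channel genes differed in how many footprints they had for their RNA. Scn1a, Scn3a, Scn2b and Scn8a were called lower in footprints than in RNA, 4 of 6 genes, where 74.8% of all genes were called, 38.2% lower and 36.5% higher. The same 4 genes passed at an unadjusted p under 0.05, as did 76.5% of all genes. Their log2 differences of footprints over RNA were -0.92 ± 0.09 for Scn1a (adjusted p = 1.56e-06), -0.78 ± 0.10 for Scn3a (adjusted p = 2.55e-05), -0.70 ± 0.08 for Scn2b (adjusted p = 1.11e-05) and -0.21 ± 0.07 for Scn8a (adjusted p = 0.0122), all from edgeR. Scn2a at -0.07 ± 0.08 and Scn3b at 0.07 ± 0.08 were not called (adjusted p = 0.422 and 0.442, edgeR). The median of the 6 was -0.45, against -0.01 over all genes, whose middle 50% ran from -0.62 to 0.57. Scn1a stood at percentile 15.9 of all genes and Scn3b at percentile 53.5.

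**Figure D4:**
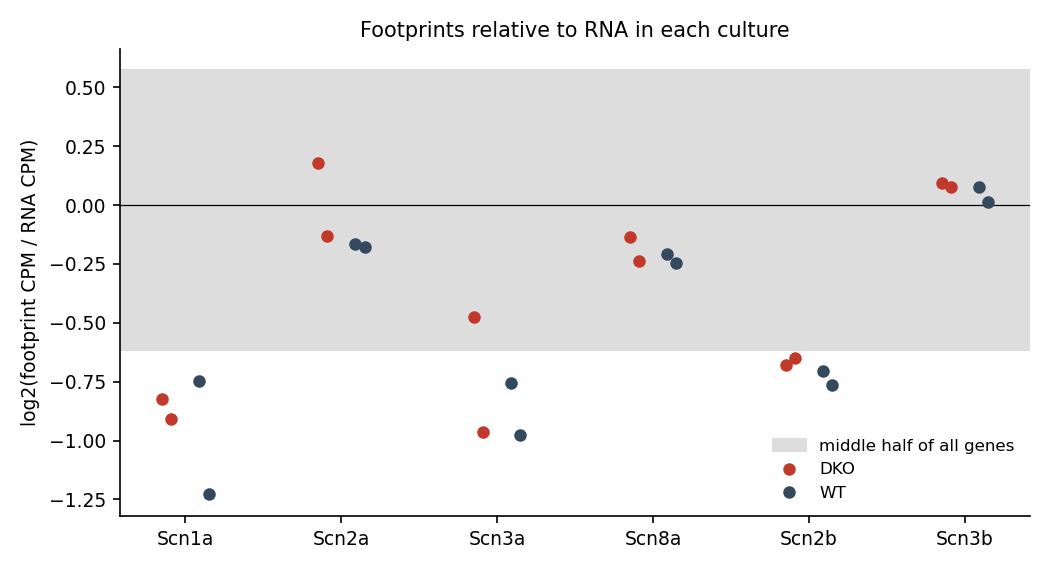
Each point is the log2 ratio of footprint CPM to RNA CPM of a gene in 1 culture, DKO left of WT. Scn1a, Scn3a, Scn2b and Scn8a lie below 0 in every culture, and the DKO and WT points overlap for every gene except Scn2a and Scn2b.

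Library kind, untranslated sequence and the isoforms analysed all enter this ratio, which compares a gene with the typical gene and is no rate of translation. Of the bases analysed, 2671 of 3502 in Scn3a, 2550 of 5637 in Scn1a and 1397 of 2756 in Scn2a lie in no coding isoform. In Scn8a it was 667 of 15494, in Scn3b 940 of 5461 and in Scn2b 0 of 4656. Over protein-coding isoforms alone, Scn1a stood at -0.74 and was still called. The part of such bases in the ratios was not tested. The call of Scn8a was lost without a filter on low counts (log2 difference -0.16, adjusted p = 0.0756, edgeR), without the RNA library of DKO replicate 2 (-0.16, adjusted p = 0.0604), without both libraries of DKO replicate 2 (-0.18, adjusted p = 0.0819) and without both libraries of WT replicate 1 (-0.19, adjusted p = 0.0558). Without both libraries of DKO replicate 2, the others stood at -0.90 for Scn1a, -0.66 for Scn3a, -0.71 for Scn2b, 0.01 for Scn2a and 0.07 for Scn3b, and Scn1a, Scn3a and Scn2b were called. With scaling factors computed within each assay, the median of all genes moved to -0.24, and Scn2a at -0.30 was called (adjusted p = 0.00335, edgeR), although it then lay close to that median.

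The ratio of Scn3b depended on which isoforms were summed. Scn3b-205, a processed transcript of 704 bases of which 345 lie in coding sequence, took 60.2% to 62.8% of the gene's footprint counts but 1.78% to 3.83% of its RNA counts. Scn3b-207, a short protein-coding isoform of 672 bases, took 22.4% to 27.2% of footprints and 1.44% to 2.26% of RNA. The full-length isoform Scn3b-201 took 0% to 0.369% of footprints and 39.6% to 65.1% of RNA. Footprints and RNA of Scn3b were thus assigned to different isoforms of the same gene. Over protein-coding isoforms alone, which held 35.67% to 37.18% of its footprints and 94.23% to 96.41% of its RNA, the log2 difference of Scn3b was -1.31 (adjusted p = 2.09e-07, edgeR), against 0.07 over all isoforms.

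Scn2b showed the same split between isoforms that share a coding sequence. Scn2b-201, of 3958 bases, took 76.6% to 92.0% of the footprints and 0% of the RNA, and Scn2b-202, of 4656 bases, took 8.0% to 23.4% of footprints and 100% of RNA. Both hold all 645 coding bases, so a footprint cannot tell them apart there. Scn8a was divided more alike, with Scn8a-205, of 11232 bases, at 74.7% to 80.4% of footprints and 82.6% to 85.4% of RNA, and Scn8a-212 at 18.7% to 24.7% of footprints and 9.38% to 11.0% of RNA. In Scn1a, the protein-coding Scn1a-207 took 82.8% to 88.2% of footprints and 73.9% to 78.7% of RNA, and the retained-intron Scn1a-205 took the rest. In Scn2a, the retained-intron isoform Scn2a-209 took 50.5% to 55.8% of footprints and 38.9% to 40.4% of RNA. These shares are estimates from short reads, and their ranges run over all 4 cultures.

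**Figure D5:**
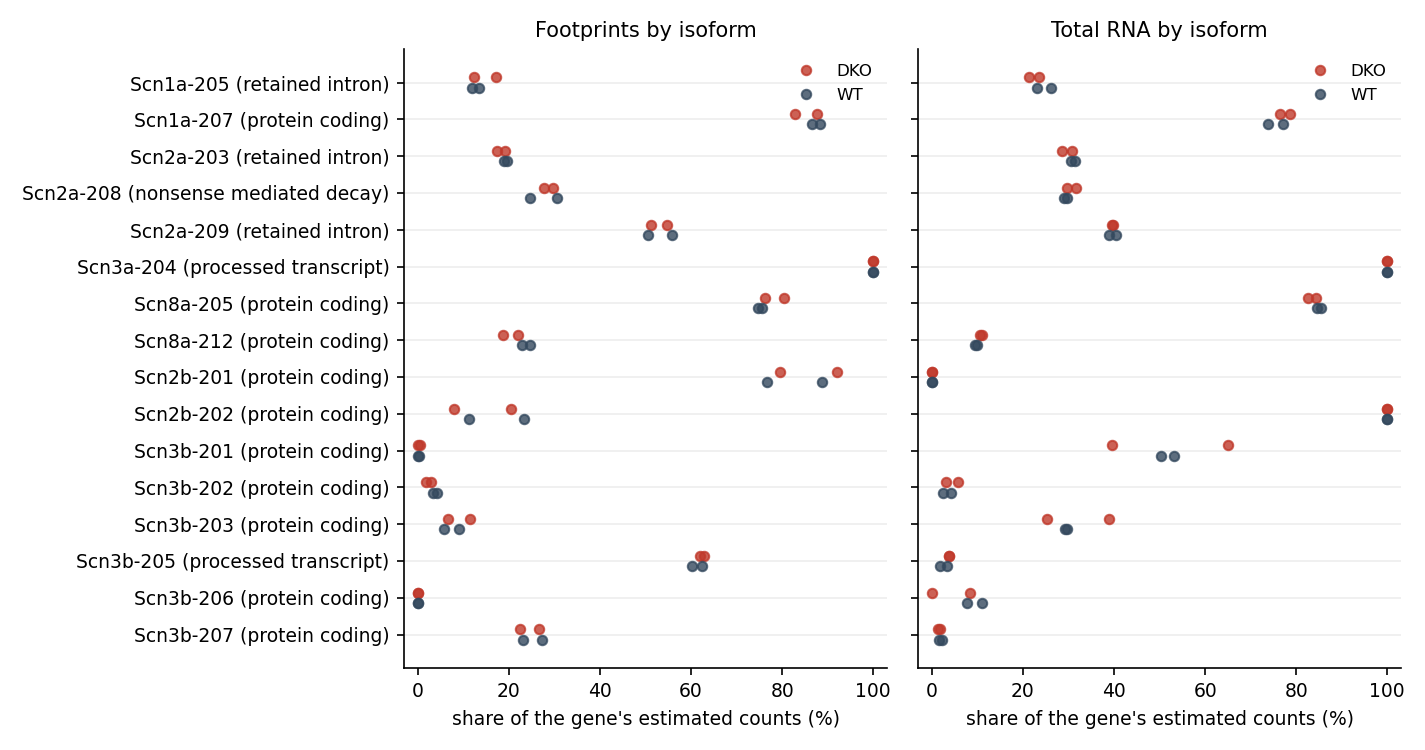
Each point is the share of a gene's estimated counts, in percent, that 1 library assigns to an isoform, with footprints in 1 panel and RNA in the other and DKO and WT in different colours. Scn3b-205 and Scn2b-201 lead in footprints and Scn3b-201 and Scn2b-202 in RNA, in DKO and WT alike.

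Levels between genes were compared per kilobase. RNA of each isoform was divided by its length and summed over isoforms, and footprints were divided by the coding bases in the analysed isoforms. In RNA the order by median over the 4 libraries was Scn2a (71.87 CPM per kilobase), Scn3b (47.58), Scn1a (24.9), Scn8a (17.6), Scn3a (10.03) and Scn2b (5.358), and no neighbours in it overlapped. In footprints, Scn3b was highest at 247.6 CPM per coding kilobase, followed by Scn2a at 45.01, Scn3a at 24.71, Scn2b at 24.28, Scn8a at 15.74 and Scn1a at 12.68. Scn3a and Scn2b overlapped, and the other neighbours did not. The footprint level of Scn2a was 49.48 and 45.81 CPM per coding kilobase in DKO, against 44.2 and 38.82 in WT. Since Scn2a, Scn3a and Scn1a are measured on parts of their transcripts, their places in these orders rest on those parts. The 3 isoforms of Scn2a do not overlap one another, nor do the 2 of Scn1a. An mRNA that spans them can thus add to each, which can raise the RNA values of these genes against the others. The place of Scn2a above Scn3b in RNA therefore cannot be read as a higher level.

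Over the 8 libraries, centred within each assay, Scn2a and Scn3a varied most alike among the 6 genes (r = 0.886 as a description, n = 8), and Scn3a and Scn2b least (r = -0.565). Among the 10597 other genes averaging at least 5 CPM in each assay, those most like Scn2a were Uqcrc1 (r = 0.979), a subunit of mitochondrial complex III, and Ube2o (r = 0.978), a ubiquitin ligase. For Scn3a they were Dop1a (r = 0.997) and Gucy1b1 (r = 0.996), a subunit of soluble guanylate cyclase. For Scn1a they were Myo9a (r = 0.966), a myosin, and Ssh2 (r = 0.965), a cofilin phosphatase, and for Scn8a they were Sez6l2 (r = 0.981), a neuronal membrane protein, and Jup (r = 0.98), plakoglobin. For Scn2b they were Tmbim1 (r = 0.975) and Slc44a2 (r = 0.962), a choline transporter, and for Scn3b they were Cadm4 (r = 0.99), an adhesion molecule, and Pigt (r = 0.986), which attaches lipid anchors to proteins. The 8 points share library depth and culture, and the 99th percentile of such r over all candidates was already 0.828 to 0.919.

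Of 8 other sodium channel genes, 5 had enough counts to be tested, and 0 were called between DKO and WT in any of the 3 measures. Their median log2 difference was 0.14 in footprints and 0.22 in RNA, against 0.00 over all genes in each. The smallest p in footprints belonged to Scn9a, an alpha subunit best known from sensory neurons (log2 difference 0.42 ± 0.16, adjusted p = 0.836, edgeR), and Scn7a, a sodium-sensing relative (0.57 ± 0.34, adjusted p = 0.853). In RNA, Scn7a had 0.83 ± 0.28 (adjusted p = 0.851). Footprints were called lower than RNA in 4 of these 5 genes, against 38.2% of all genes.

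The proteins that hold sodium channels in the axon initial segment, or bind them, gave no call between DKO and WT among 21 tested genes. Their median log2 difference was 0.02 in footprints and -0.05 in RNA. Nfasc, the adhesion molecule neurofascin, had -0.19 ± 0.10 in footprints and -0.21 ± 0.09 in RNA (adjusted p = 0.849 and 0.851, edgeR). Fgf11, an intracellular fibroblast growth factor relative, had 0.24 ± 0.13 in footprints (adjusted p = 0.849, edgeR), and Sptbn4, the spectrin of the initial segment, had 0.24 ± 0.10 in RNA (adjusted p = 0.851, edgeR). The sodium leak channel's partners Unc79, Unc80 and Fam155a were tested as well, with 0 of 3 called. In footprints, Unc79 had 0.05 ± 0.11 and Fam155a 0.03 ± 0.10, and in RNA, Unc79 had 0.12 ± 0.10 and Unc80 -0.09 ± 0.09.

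Of 15 regulators known to act on sodium channel transcripts or on neuronal transcripts at large, 14 were tested and 0 were called between DKO and WT. Ptbp1, a splicing repressor of non-neuronal cells, had a log2 difference of -0.34 ± 0.21 in footprints, and Rest, a repressor of neuronal genes known for silencing sodium channel genes outside neurons, had -0.24 ± 0.15 (adjusted p = 0.855 for both, edgeR). Ptbp1 footprints had 51 and 50.59 CPM in DKO, against 53.18 and 75.28 CPM in WT. Those of Rest had 22.27 and 17.91 CPM in DKO, against 20.62 and 26.45 CPM in WT. WT replicate 2 was thus the highest library for both genes. In RNA, Rbfox3, a neuronal splicing factor, had 0.20 ± 0.11 and Srrm4, a microexon splicing factor, had 0.31 ± 0.17 (adjusted p = 0.851 for both, edgeR). The progenitor and radial glia markers lay below 0 in 8 of 8 tested genes in footprints and in RNA, with 0 called. Their medians were -0.31 and -0.32, against 0.003 and -0.001 over all genes. Their summed CPM was highest in WT replicate 2 in both assays, and whether these markers move with Rest and Ptbp1 was not tested.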

How the data were processed

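The authors deposited whole-number estimated counts, 1 row per Ensembl transcript. FastQC, Trimmomatic, Bowtie and kallisto are named, per the submitters' processing notes. Their versions, their settings, strand and the transcript set: not given in the sources used here. Of 60528 transcripts, 60444 (99.86%) matched GENCODE M21, each with support level 1, 2 or 3, and were summed into 18301 genes. The column of the DKO replicate 2 footprints was matched by its index sequence, since its culture code is spelled in several ways. Footprint libraries held 10490535 to 19753419 counts, and RNA libraries 14762047 to 44786643.

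The 8 libraries entered a single quasi-likelihood fit in edgeR 4.0.16 (R 4.3.3, with limma 3.58.1 for voom) with 4 group means, TMM scaling and robust dispersions, leaving 4 residual degrees of freedom. It had no term for culture. The p-values, SEs and intervals of translational efficiency and of footprints over RNA therefore ignore the pairing of libraries within a culture. Those of DKO against WT within an assay rest on a spread drawn from both assays, with libraries of a culture taken as independent. filterByExpr (minimum count 10, in both assays) left 12898 genes, and Benjamini-Hochberg adjusted p under 0.05 was called. CPM values use TMM-scaled library sizes. The procedure was tested on simulated data. Replicates of a group differed beyond counting noise (chi-square per degree of freedom 8.95 to 15.89).

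Named genes are the 6 members, for each other list at most 4 called genes or, where none was called, the 2 of smallest p in each assay, and for each member the 2 genes with the highest r. Of the genes and sequences so chosen, some are not reported here. Members and lists were chosen with earlier results of these data known. Footprint and RNA libraries of the same genotype and number were taken as 1 culture from their codes; deviations of replicates correlated across genes between assays at 0.2 in DKO and 0.579 in WT. Alternatives were other scalings, filters, DESeq2 1.42.0, limma-voom, protein-coding isoforms alone, 1 assay alone, replicate blocks and leaving out libraries or cultures.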

Additional observations from a re-analysis of the deposited data

How the results depend on the processing

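Under 22 settings, none of 378 genotype values of the 6 genes was called (lowest adjusted p = 0.259), while 53 changed sign. Of these, RNA of Scn1a was 0.003 with RLE scaling and with DESeq2 and 0.055 over protein-coding isoforms, RNA of Scn8a was 0.008 with RLE scaling and with DESeq2, 0.001 without a filter, 0.002 with limma-voom and 0.018 over protein-coding isoforms, and translational efficiency of Scn1a was -0.005 over protein-coding isoforms. Footprints over RNA of Scn3b was -0.163 with scaling within each assay and -1.314 over protein-coding isoforms. Scaling also moved the median of all genes. In footprints over RNA it went to -0.244 with scaling within each assay, against -0.014. In RNA it went to 0.011 with RLE scaling, against -0.001. The sign changes under these scalings went along with that shift, and medians under the other settings are not given here. Scn2a and Scn3a have no protein-coding isoform here and gave no value there. Leaving out libraries or cultures, footprints ranged from -0.094 to 0.324 (Scn1a), -0.017 to 0.352 (Scn3a), -0.061 to 0.075 (Scn2b) and -0.203 to 0.006 (Scn3b). RNA ranged from -0.076 to 0.071 (Scn1a), -0.097 to 0.13 (Scn2a), -0.054 to 0.139 (Scn3a), -0.076 to 0.079 (Scn8a) and -0.101 to 0.031 (Scn2b). Translational efficiency ranged from -0.117 to 0.334 (Scn1a), -0.115 to 0.373 (Scn3a), -0.05 to 0.09 (Scn8a), -0.018 to 0.136 (Scn2b) and -0.089 to 0.139 (Scn3b), and footprints over RNA of Scn2a from -0.149 to 0.006. Causes of the other sign changes were not tested. The replicate block was the replicate number in footprints and in RNA. In translational efficiency and footprints over RNA it was the culture, which pairs the libraries of both assays. With the replicate block, 0 of the 6 genes were called in each genotype comparison and 4 in footprints over RNA, with Scn2a at 0.196 in footprints. Over all genes, 1 was called in footprints and 24 in RNA, against 1 and 2 without the block. In the block by number, DKO and WT share only the number, and deviations of the same number correlated at -0.131 in footprints and -0.139 in RNA. A crossed block, chosen after seeing the data, called 13 genes in footprints and 4 in RNA. Over all genes, DESeq2 called 5 in footprints and 13 in RNA, no filter 3 and 6, and leaving out WT replicate 1 508 and 381. A culture left out leaves its group with 1 sample an assay, which is assumed to vary like the others. Libraries of 2 a group limit what could be detected.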
